A study of Arabidopsis thaliana with 20 samples.

Results

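Plant cells are bounded by a wall of cellulose, hemicelluloses and pectins, and the wall sets how far a cell can expand. Expansins loosen the wall without cutting its polymers, while xyloglucan endotransglucosylase/hydrolases (XTH) cut and rejoin xyloglucan and the glycosyl hydrolases of family GH9 cut β-glucan chains. Cellulose synthase-like (CSL) proteins build hemicellulose backbones, trichome birefringence-like (TBL) proteins are mostly acetyltransferases that decorate wall polysaccharides, and pectin methylesterases (PME) remove methyl groups from pectin. Leaf growth and many of these transcripts are known to vary over day and night, and sugar supply at night comes from starch made in the day.

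The members described here were 73 genes whose single symbol in the platform annotation starts with EXPA, EXPB, EXLA, EXLB, XTH, GH9, TBL, CSL or PME, out of 22746 probe sets (groups of oligonucleotides that measure 1 transcript or a few) other than controls. A further CSL gene was left out of the members, and no cellulose synthase (CESA) symbol was among the named probe sets, so cellulose synthases were not analysed here. The members comprised 10 EXPA, 4 EXPB, 3 EXLA and 1 EXLB gene, 9 XTH, 15 GH9, 22 TBL, 6 CSL and 3 PME genes, each with 1 probe set. PMEAMT met the letters of the rule but is a phosphoethanolamine N-methyltransferase of phosphocholine synthesis and not a wall gene.

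Transcripts were measured on 1-colour arrays in rosette leaves 5 to 8 of WT plants and of Atss3, a mutant in starch synthase 3, an enzyme that makes leaf starch. All plants grew with 8 h of light and 16 h of dark, and leaves were taken 1 and 4 h after the lights came on and, in the dark, at 8.5, 12 and 16 h, which is 0.5, 4 and 8 h after lights off. The experiment was grown 2 times, so each of the 10 groups of genotype and time had 2 arrays (run 1 and run 2), 20 in all, and each array held pooled leaves of 16 plants that were 6 weeks old. The annotation used here gave SS3 no probe set of its own, so the level of the mutated gene could not be used to check the mutant label.

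A member was kept where its signal exceeded the 40th percentile of the array (80.5 to 104 signal units) on at least 2 arrays, and lower signals are called dim below. This kept 47 members and 15470 of all probe sets. The 26 members not kept had signals from 1.15 to 121 on every array, and 24 of them were dim on all 20 arrays. They were CSLC12, EXLA3, EXPA7, EXPA21, EXPA24, EXPB5, GH9A4, GH9B6, GH9B11, GH9B12, GH9B16, GH9B17, GH9B18, GH9C1, GH9C3, TBL19, TBL20, TBL21, TBL30, TBL34, TBL42, TBL43, XTH20, XTH21, XTH26 and XTH29. EXPA7 is an expansin of root hairs. Of the 47 kept, 27 were above the percentile on all 20 arrays and 12 were dim on at least 12 arrays, and folds of such dim members rest on signals that differ little from background.

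The labelled tissue was borne out by its defining genes: 4 of 7 mesophyll markers had a named probe set (RCA, LHCB4.1, LHCB4.2 and PSAE-1), with mean signals from 13287 to 22324. PYK10, a root marker, averaged 301, the guard cell gene FMA 160 and the sugar exporter SWEET11, of the phloem, 5518; markers of xylem, dividing cells, flowers and trichomes had no named probe set. The 5 WT arrays of run 1 stood apart in the log2 ratio of the GAPDH control signals from both ends of the transcript, a measure of RNA integrity, at -0.13 ± 0.109 (SD, n = 5), against 0.30 ± 0.0929 in WT run 2, 0.38 ± 0.0336 in Atss3 run 1 and 0.43 ± 0.203 in Atss3 run 2. Calls of the named comparisons that were lost without those 5 arrays are given beside them below.

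Over the day, 37 of the 47 kept members changed in the mean of both genotypes (a moderated F test over the 5 times in limma, adjusted p under 0.05 over all 15470 probe sets), against a background of 65.5% of all probe sets. Fewer were called without the 5 WT arrays of run 1, a fit whose own background is not given here. By family the 37 were 5 of 7 EXPA, 2 of 3 EXPB, 2 of 2 EXLA, the single EXLB, 5 of 5 XTH, 4 of 6 GH9, 4 of 5 CSL, 3 of 3 PME and 11 of 15 TBL genes. Of the 37, 29 had a range of at least 2-fold between their highest and lowest time means, as had 48.2% of all called probe sets. The median range was 1.21 log2 over the 47 members and 0.73 log2 over all 15470. In 35 of the 37 the 4 arrays of the highest time all lay above the 4 arrays of the lowest time. Called and separated in this way were thus 35 of the 47 kept members, against 57.7% of all 15470 probe sets. Among called probe sets alone, 8933 of 10127 were separated, beside the 35 of 37 members. The highest and lowest times were picked from these same arrays. In leaf samples of this kind, fewer cells of a type and less RNA per cell cannot be told apart.

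**Figure D1:**
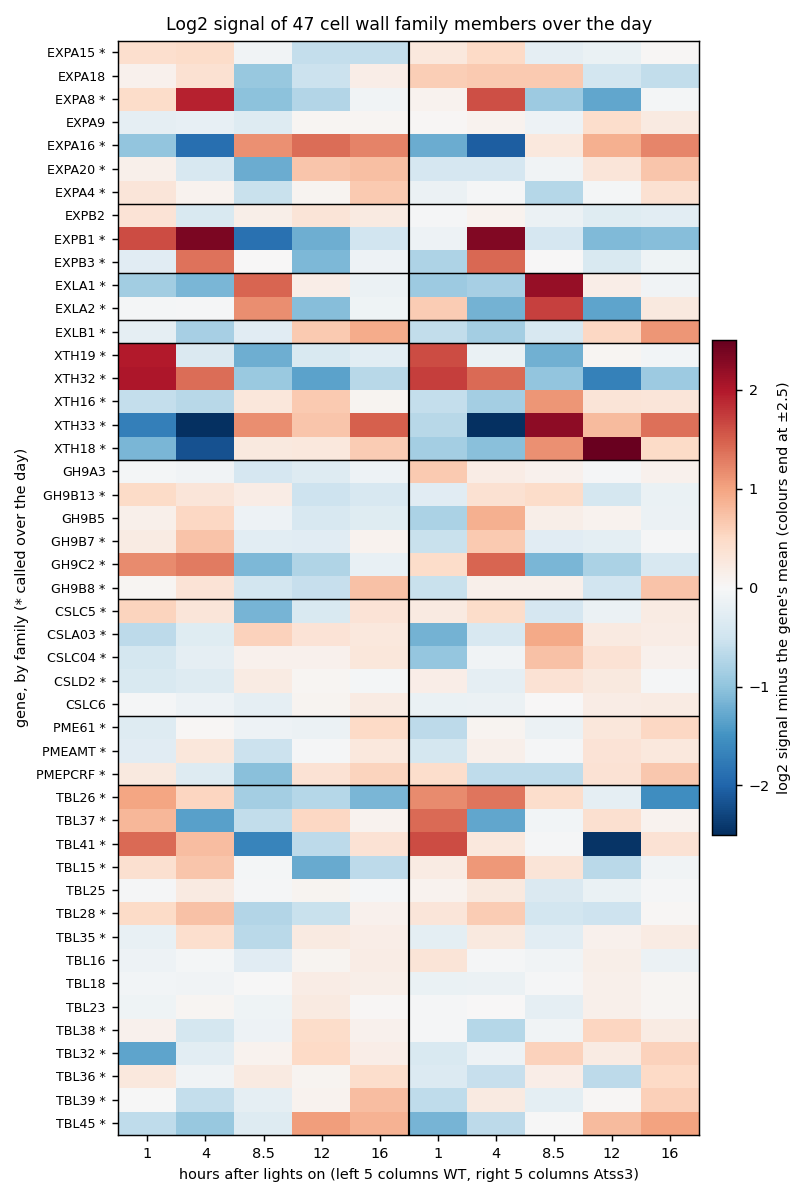
Mean log2 signal of each of the 47 kept members (rows, by family) at the 5 harvest times in WT and Atss3 (columns), with the gene's own mean over the 10 groups subtracted, so red is higher and blue lower (2 arrays a cell). The 37 members called over the day carry a star; EXPA16 is blue at 1 and 4 h and red at 8.5, 12 and 16 h, and XTH32 is the reverse.

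The members did not share 1 time of day. Among the 37 called members the highest time mean fell at 1 h in 6, at 4 h in 10, at 8.5 h in 7, at 12 h in 2 and at 16 h in 12, while among all 10127 called probe sets the shares were 26.4%, 19.1%, 20.4%, 16.8% and 17.3%. The 12 members highest at 16 h included 3 of 5 called EXPA genes, all 3 PME genes, EXLB1 and 4 of 11 TBL genes. Those highest at 4 h included both called EXPB genes and 3 of 4 called GH9 genes, and both EXLA genes were highest at 8.5 h. The lowest mean fell at 1 h in 7, at 4 h in 10, at 8.5 h in 9, at 12 h in 10 and at 16 h in 1. Among all 10127 called probe sets these shares were 34.4%, 18.5%, 23.7%, 10.7% and 12.7%.

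Among the α-expansins, the classical wall-loosening proteins, EXPA16 and EXPA8 moved in opposite directions between mid light and early night. In WT the signal of EXPA16 (AT3G55500), given here as run 1 and run 2, was 84.8 and 215 at 1 h, 59.4 and 88.1 at 4 h, 465 and 759 at 8.5 h, 685 and 719 at 12 h and 503 and 791 at 16 h. Atss3 arrays gave 97.1 and 133 at 1 h, 41.7 and 99.8 at 4 h, 253 and 409.9 at 8.5 h, 493 and 502 at 12 h and 593 and 662 at 16 h. Every array in the dark was above every array in the light, and all 4 arrays at 4 h and 2 of 4 at 1 h were dim. EXPA16 was 6.62-fold higher in the dark (mean of 12 and 16 h) than in the light (mean of 1 and 4 h; log2 difference 2.73, SE 0.147, adjusted p = 1.64e-08), with the rise placed between 4 and 8.5 h (2.68 log2, SE 0.208, adjusted p = 1.27e-06). It fell again by the first hour of light, from 16 h to 1 h (-2.34 log2, adjusted p = 2.31e-06). Its further fall from 1 to 4 h (-0.86 log2, adjusted p = 0.00683) did not pass with dim signals raised to the percentile (-0.40 log2, adjusted p = 0.114).

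EXPA8 (AT2G40610) was highest in mid light. WT arrays read 908 and 1150.4 at 1 h, 2634 and 2981 at 4 h, 469.8 and 286 at 8.5 h, 685 and 293 at 12 h and 617 and 785 at 16 h. The Atss3 signals were 858 and 727 at 1 h, 2329.8 and 2216 at 4 h, 446 and 348 at 8.5 h, 312 and 295 at 12 h and 767 and 680.1 at 16 h. All 4 arrays at 4 h lay above all 16 others. It rose 2.81-fold from 1 to 4 h (log2 difference 1.49, SE 0.221, adjusted p = 0.000254) and fell 6.64-fold by 8.5 h (log2 difference -2.73, SE 0.221, adjusted p = 1.72e-06). From 12 to 16 h EXPA8 rose by 0.94 log2 (SE 0.221, adjusted p = 0.0341, 3 of 4 pairs of genotype and run), a call that was lost without any 1 of 6 arrays of those times (adjusted p up to 0.134, without WT 16 h replicate 2).

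The other called α-expansins had smaller ranges. EXPA4 was lowest at 8.5 h, at 264 ± 26.7 (SD, n = 4 arrays), and highest at 16 h, at 589 ± 79.2, with no overlap of those arrays, and it fell from 4 to 8.5 h (-0.67 log2, adjusted p = 0.012) and rose to 12 h (0.65 log2, adjusted p = 0.0247). EXPA15 was higher in the light, with means of 279 ± 13.4 at 4 h and 158 ± 39.1 at 12 h, and was 1.67-fold lower in the dark (log2 difference -0.74, SE 0.111, adjusted p = 0.000124). Without the 5 WT arrays of run 1 the time course of EXPA15 missed the threshold (adjusted p = 0.0628). EXPA20 was higher in the dark (log2 difference 0.88, SE 0.284, adjusted p = 0.0203), but it was dim on every array at 1, 4 and 8.5 h, its time course lost its call without any 1 of 10 arrays (adjusted p up to 0.0826, without Atss3 16 h replicate 2), and with raised signals its adjusted p was 0.342. EXPA9 and EXPA18, the latter known from root hairs, were not called over the day (adjusted p = 0.115 and 0.262), and EXPA18 was dim on 15 of 20 arrays.

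Of the 3 kept β-expansins, relatives of the grass pollen expansins, EXPB3 and EXPB1 were called over the day, both with their highest mean at 4 h. In WT the EXPB3 (AT4G28250) signal was 178 and 259 at 1 h, 721 and 621 at 4 h, 349 and 199.7 at 8.5 h, 109.5 and 129.7 at 12 h and 273 and 207 at 16 h. For Atss3 the values were 122 and 192 at 1 h, 748 and 659 at 4 h, 280.1 and 248 at 8.5 h, 190.1 and 209 at 12 h and 243 and 239 at 16 h. The 4 arrays at 4 h, from 621 to 748, lay above all others, of which the highest was 349. EXPB3 rose 3.77-fold from 1 to 4 h (log2 difference 1.92, SE 0.202, adjusted p = 1.93e-05), fell 2.6-fold to 8.5 h (log2 difference -1.38, SE 0.202, adjusted p = 0.000202) and fell again to 12 h (-0.78 log2, adjusted p = 0.0181).

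EXPB1 (AT2G20750) was also highest at 4 h. Its signals in WT were 196 and 352 at 1 h, 556 and 336 at 4 h, 89.5 and 6.02 at 8.5 h, 38 and 34.8 at 12 h and 79 and 46.3 at 16 h. Those in Atss3 were 114 and 52.8 at 1 h, 486 and 362 at 4 h, 79.1 and 50.8 at 8.5 h, 33 and 46.6 at 12 h and 45.1 and 35.8 at 16 h. At 8.5, 12 and 16 h its signals were from 6.02 to 89.5, and 11 of those 12 arrays were dim. It was 5.71-fold lower in the dark (log2 difference -2.51, SE 0.389, adjusted p = 0.000159), and with raised signals the difference was -1.51 log2 (adjusted p = 3.1e-07). In run 2 alone the dark minus light difference was -2.43 log2 and did not pass. Its rise from 1 to 4 h (1.58 log2, adjusted p = 0.0423) lost its call without any 1 of 15 arrays (adjusted p up to 0.173, without WT 1 h replicate 1). EXPB2 was dim on 17 of 20 arrays and was not called (adjusted p = 0.84), with means of 80.6 ± 23.9 at 1 h and 64.4 ± 16.7 at 4 h (SD, n = 4 arrays).

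The expansin-like genes, whose proteins resemble expansins but have no shown loosening activity, had their highest means at harvests in the dark. For both kept EXLA genes this was at 8.5 h and for EXLB1 at 16 h. In WT the EXLA1 (AT3G45970) signal was 201 and 399 at 1 h, 241 and 223 at 4 h, 1105 and 1776 at 8.5 h, 479 and 697 at 12 h and 489.7 and 445 at 16 h. In Atss3 it was 211 and 355 at 1 h, 215 and 386 at 4 h, 1723 and 3169.7 at 8.5 h, 866 and 385 at 12 h and 625 and 373 at 16 h. The 4 arrays at 8.5 h, from 1105 to 3169.7, were the highest of the 20. EXLA1 rose 7-fold from 4 to 8.5 h (log2 difference 2.81, SE 0.33, adjusted p = 3.37e-05) and fell 3.13-fold by 12 h (log2 difference -1.65, SE 0.33, adjusted p = 0.00442), the second of which did not pass without the 5 WT arrays of run 1 (log2 difference -1.68). EXLA2 was also highest at 8.5 h, with a rise of 2.05 and a fall of -2.63 log2 around 8.5 h (adjusted p = 0.0116 and 0.00553), but it was dim on 17 of 20 arrays and its time course was lost with raised signals (adjusted p = 0.232). Its difference between the dark at 12 and 16 h and the light was -0.40 log2 and was not called (adjusted p = 0.407).

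EXLB1 (AT4G17030) was highest at 12 and 16 h. The WT values were 226 and 293 at 1 h, 214 and 136 at 4 h, 283 and 217 at 8.5 h, 571 and 401 at 12 h and 692 and 479 at 16 h. Atss3 arrays gave 200.1 and 193 at 1 h, 167 and 167 at 4 h, 191 and 275 at 8.5 h, 475 and 393 at 12 h and 809 and 527 at 16 h. All 8 arrays at 12 and 16 h lay above the 12 others. It rose from 8.5 to 12 h (log2 difference 0.93, SE 0.194, adjusted p = 0.00558), a rise that was 0.70 log2 in run 2 alone and did not pass. The step from 12 to 16 h was 0.43 log2 and was not called (adjusted p = 0.267). EXLB1 was 2.73-fold lower at 1 h than at 16 h (log2 difference -1.45, SE 0.194, adjusted p = 7.05e-05). Dark minus light was 1.44 log2 (SE 0.137, adjusted p = 2.54e-06).

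**Figure D2:**
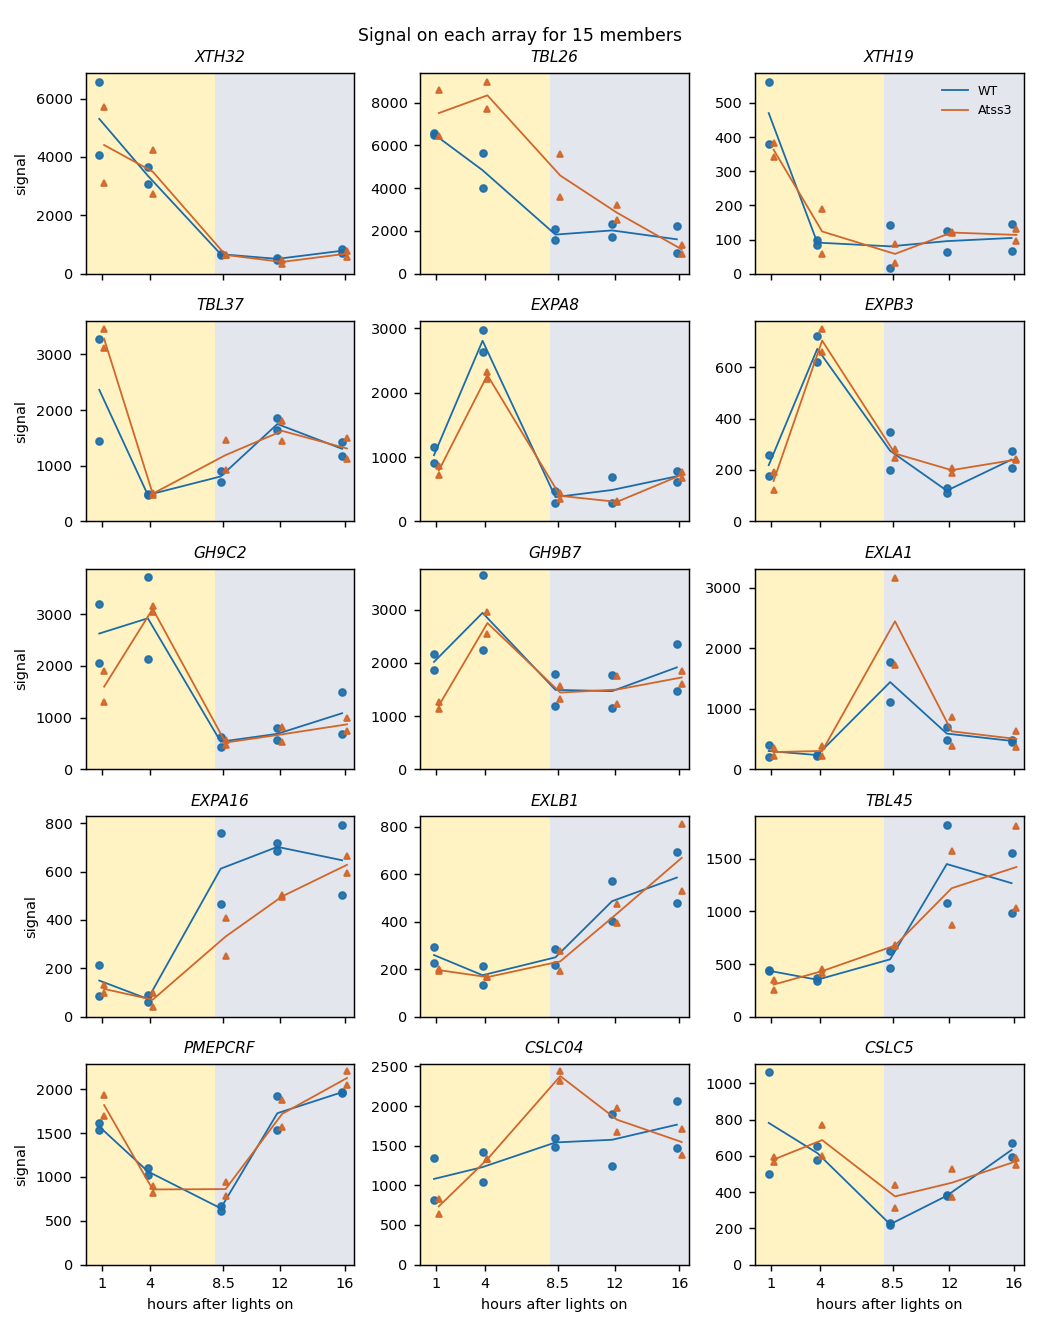
Signal (linear MAS5 units, vertical axis from 0) on each of the 20 arrays against hours after lights on for 15 members, with circles for WT, triangles for Atss3, lines through the means of the 2 arrays, and the light period shaded yellow and the dark grey. EXPA8 reaches 2216 to 2981 at 4 h in both genotypes, while EXLA1 is highest at 8.5 h and EXLB1 and TBL45 at 12 and 16 h.

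All 5 kept XTH genes changed over the day, 2 of them with their highest mean at 1 h. XTH32 (AT2G36870) belongs to the branch of the family that includes hydrolases. Signals in WT were 4056 and 6559 at 1 h, 3657 and 3062 at 4 h, 650.1 and 689 at 8.5 h, 549 and 468 at 12 h and 858 and 717 at 16 h. The Atss3 signals were 5708 and 3110.4 at 1 h, 4256 and 2743 at 4 h, 628 and 657 at 8.5 h, 476 and 332 at 12 h and 793 and 583 at 16 h. The 8 arrays in the light lay between 2743 and 6559 and the 12 in the dark between 332 and 858, so that light and dark did not overlap. XTH32 was 6.94-fold lower in the dark (log2 difference -2.79, SE 0.144, adjusted p = 1.12e-08), falling between 4 and 8.5 h (-2.37 log2, SE 0.204, adjusted p = 2.81e-06) and rising 6.38-fold from 16 h to 1 h (2.67 log2, SE 0.204, adjusted p = 6.53e-07). It had the smallest adjusted p of the members for the time course (6.66e-08).

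XTH18 (AT4G30280) and XTH19 (AT4G30290) are neighbouring genes on their chromosome and differed in their timing. In WT the XTH19 signal was 381 and 559.7 at 1 h, 84.6 and 97.5 at 4 h, 17.6 and 143 at 8.5 h, 64.9 and 126 at 12 h and 65.2 and 144 at 16 h. For Atss3 the values were 343 and 383 at 1 h, 57 and 190.2 at 4 h, 30.1 and 85.8 at 8.5 h, 119 and 122 at 12 h and 95.2 and 132 at 16 h. Its 4 arrays at 1 h, from 343 to 559.7, lay above all 16 others, and it fell 4.21-fold by 4 h (log2 difference -2.07, SE 0.399, adjusted p = 0.0016) and was 3.93-fold higher at 1 h than at 16 h (log2 difference 1.97, SE 0.399, adjusted p = 0.00159). For XTH18 the WT signal was 7.58 and 167 at 1 h, 10.4 and 29.3 at 4 h, 87.3 and 101 at 8.5 h, 134 and 67.8 at 12 h and 131 and 115 at 16 h. In Atss3 it was 25.7 and 74.2 at 1 h, 24.7 and 58.8 at 4 h, 166 and 182 at 8.5 h, 302 and 635 at 12 h and 56.1 and 218 at 16 h. XTH18 was higher in the dark by 2.27 log2 (SE 0.453, adjusted p = 0.00109) where the difference for XTH19 was -0.94 log2 (SE 0.282, adjusted p = 0.0146). XTH18 was dim on 7 of 8 arrays in the light, and its dark minus light difference with raised signals was 0.75 log2 (adjusted p = 0.00249). Fitted in run 2 alone, where the WT signal at 1 h was 167, the difference was 1.41 log2 and did not pass. Whether either probe set also binds transcripts of the neighbour was not tested.

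XTH33 and XTH16 were dim in the light. XTH33 read from 2.36 to 70.8 on the 8 arrays at 1 and 4 h and from 60.5 to 265 on the 12 later ones, giving 4.39 log2 from 4 to 8.5 h (SE 0.843, adjusted p = 0.00147). With raised signals this step was 0.59 log2 (adjusted p = 0.011) and dark minus light, 3.03 log2 as measured, was 0.15 (adjusted p = 0.315). The fall of XTH33 from 16 h to 1 h (-2.63 log2, adjusted p = 0.0234) lost its call without any 1 of 6 arrays (adjusted p up to 0.109, without WT 1 h replicate 2). XTH16 differed by 1.01 log2 in the dark (adjusted p = 0.0153), and its time course lost its call without any 1 of 7 arrays (adjusted p up to 0.0701, without WT 4 h replicate 1), without the 5 WT arrays of run 1 (0.189) and with raised signals (0.22). The fall of XTH33 did not pass with raised signals either (-0.34 log2, adjusted p = 0.112).

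Of the 6 kept GH9 genes, 3 were lower in the dark and none was higher, against 22% lower and 29.3% higher of all probe sets. Of these 3, GH9B13 lost its call with raised signals (-0.10 log2). GH9C2 (AT1G64390) is of the class that carries a carbohydrate-binding module. WT signals came to 2063 and 3193 at 1 h, 3722 and 2126 at 4 h, 625 and 438 at 8.5 h, 800.2 and 569 at 12 h and 1488 and 679 at 16 h. Atss3 arrays gave 1898 and 1299.5 at 1 h, 3047 and 3166 at 4 h, 556 and 474 at 8.5 h, 818 and 532 at 12 h and 989.7 and 746 at 16 h. It was 5.7-fold lower at 8.5 h than at 4 h (log2 difference -2.51, SE 0.22, adjusted p = 3.24e-06), with 2126 as the lowest array at 4 h and 625 as the highest at 8.5 h, and it rose again from 16 h to 1 h (1.11 log2, adjusted p = 0.00138). GH9B7 (AT1G75680), of the secreted class, rose from 1609 ± 495 at 1 h (SD, n = 4 arrays) to 2848 ± 609 at 4 h (log2 difference 0.85, SE 0.15, adjusted p = 0.000849) and fell to 1468 ± 271 at 8.5 h (log2 difference -0.95, SE 0.15, adjusted p = 0.000349). In run 2 alone the time course of GH9B7 did not pass (adjusted p = 0.122).

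GH9B13 was lower in the dark (-0.61 log2, adjusted p = 0.00316), but it was dim on 14 of 20 arrays and lost its time course with raised signals (adjusted p = 0.70). GH9B8 was highest at 16 h, at 454 ± 127, and lowest at 12 h, at 185 ± 15.4, a time course (adjusted p = 0.0337) that was lost without any 1 of 12 arrays (up to 0.116, without WT 16 h replicate 1). GH9A3, a membrane-anchored relative of KORRIGAN, and GH9B5 were not called over the day (adjusted p = 0.143 and 0.153).

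Among the CSL genes, those for 2 xyloglucan-type backbone synthases differed in direction. In WT the signal of CSLC04 (AT3G28180), a glucan synthase of the xyloglucan backbone, was 809.7 and 1351 at 1 h, 1419.5 and 1039.5 at 4 h, 1602 and 1479 at 8.5 h, 1905 and 1244 at 12 h and 2058 and 1472 at 16 h. The Atss3 signals were 826 and 643 at 1 h, 1332 and 1329 at 4 h, 2440.0 and 2316 at 8.5 h, 1981 and 1676 at 12 h and 1715 and 1377 at 16 h. Its mean was lowest at 1 h, with arrays from 643 to 1351, and the arrays at 8.5 h, from 1479 to 2440.0, lay above those. CSLC04 was higher in the dark (log2 difference 0.65, SE 0.128, adjusted p = 0.00097) and lower at 1 h than at 16 h (-0.91 log2, adjusted p = 0.00144), and its time course did not pass in run 2 alone (adjusted p = 0.306).

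CSLC5 (AT4G31590), a relative of CSLC04, was lowest early in the night. In WT its signal was 499 and 1064 at 1 h, 652 and 578 at 4 h, 216 and 228 at 8.5 h, 382 and 378 at 12 h and 592 and 673 at 16 h. For Atss3 the values were 565 and 594 at 1 h, 772 and 602 at 4 h, 437 and 315 at 8.5 h, 529 and 373 at 12 h and 589 and 551 at 16 h. It fell 2.25-fold from 4 to 8.5 h (log2 difference -1.17, SE 0.211, adjusted p = 0.000913) and was lower in the dark (-0.39 log2, adjusted p = 0.046). CSLA03, of the group that makes mannans, rose from 202 ± 44 at 4 h (SD, n = 4 arrays) to 436 ± 112 at 8.5 h (log2 difference 1.10, SE 0.274, adjusted p = 0.00754) and stood at 137 ± 37.5 at 1 h. CSLD2, known from tip-growing cells, rose by 0.55 log2 over the same step (adjusted p = 0.0106), and its time course lost its call without any 1 of 9 arrays (adjusted p up to 0.0872, without Atss3 4 h replicate 1) and without the 5 WT arrays of run 1 (0.068). CSLC6 was not called (adjusted p = 0.293).

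All 3 genes under PME had their highest mean at 16 h. PMEPCRF (AT5G53370), a pectin methylesterase, was lowest in mid light and early in the dark. WT arrays read 1539 and 1610.3 at 1 h, 1099 and 1027 at 4 h, 615 and 669 at 8.5 h, 1919 and 1535 at 12 h and 1974 and 1961 at 16 h. In Atss3 it was 1940.4 and 1699 at 1 h, 901 and 813 at 4 h, 781 and 941 at 8.5 h, 1875 and 1566 at 12 h and 2049 and 2209 at 16 h. The 8 arrays at 4 and 8.5 h, from 615 to 1099, lay below the 12 others, from 1535 to 2209. PMEPCRF fell from 1 to 4 h (-0.83 log2, adjusted p = 0.000151) and rose 2.31-fold from 8.5 to 12 h (log2 difference 1.21, SE 0.114, adjusted p = 2.91e-05).

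PME61, another pectin methylesterase, averaged 255 ± 15.4 at 16 h (SD, n = 4 arrays) and 129.9 ± 27.4 at 1 h (a 2-fold difference, adjusted p = 8.11e-05) and was higher in the dark (0.51 log2, adjusted p = 0.000757). Fitted alone, run 1 and run 2 gave adjusted p of 0.0556 and 0.0553 for its time course. PMEAMT, the phosphocholine gene, averaged 5819 ± 583 at 16 h and 3748 ± 384 at 1 h (-0.63 log2, adjusted p = 0.00795), and its dark minus light difference did not pass (0.29 log2, adjusted p = 0.0534).

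In the TBL family, the largest here, 4 of 15 kept members were lower in the dark and 5 were higher. These shares were near those of all probe sets, 22% lower and 29.3% higher. TBL26 (AT4G01080), an acetyltransferase of the group that acts on mannan, was high in the light. The WT values were 6476 and 6564 at 1 h, 5661 and 4013 at 4 h, 2069 and 1588 at 8.5 h, 1707 and 2340.0 at 12 h and 2237 and 979 at 16 h. Atss3 arrays gave 8590.4 and 6424 at 1 h, 8968 and 7704 at 4 h, 5579 and 3597 at 8.5 h, 2502 and 3200.3 at 12 h and 1346 and 932 at 16 h. The lowest array at 1 h, 6424, was above the highest at 16 h, 2237. TBL26 was 5.41-fold higher at 1 h than at 16 h (log2 difference 2.43, SE 0.222, adjusted p = 2.85e-06) and 3.78-fold lower in the dark (log2 difference -1.92, SE 0.157, adjusted p = 6.34e-07). Its fall from 12 to 16 h (-0.89 log2, adjusted p = 0.0451, 3 of 4 pairs) lost its call without any 1 of 15 arrays (adjusted p up to 0.183, without Atss3 12 h replicate 2) and did not pass without the 5 WT arrays of run 1 (-1.30 log2, adjusted p = 0.063). It was -0.25 log2 in run 1 and -1.52 in run 2.

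TBL37 (AT2G34070) had its highest mean at 1 h and its lowest at 4 h, both in the light. Signals in WT were 3276 and 1452 at 1 h, 484 and 466 at 4 h, 716 and 899 at 8.5 h, 1849 and 1648 at 12 h and 1427 and 1182 at 16 h. The Atss3 signals were 3451 and 3109 at 1 h, 482 and 515 at 4 h, 922 and 1460.5 at 8.5 h, 1443 and 1809 at 12 h and 1125 and 1493 at 16 h. The 4 arrays at 4 h, from 466 to 515, were the lowest of the 20, while those at 1 h overlapped those at 8.5, 12 and 16 h through WT replicate 2. It fell 5.5-fold from 1 to 4 h (log2 difference -2.46, SE 0.231, adjusted p = 8e-06) and rose in each of the next steps, to 8.5 h (0.99 log2, adjusted p = 0.0053) and to 12 h (0.80 log2, adjusted p = 0.0291), and again from 16 h to 1 h (1.04 log2, adjusted p = 0.00291). Dark minus light, which averages the 1 and 4 h harvests, did not pass for TBL37 (0.37 log2, adjusted p = 0.0739).

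TBL45 (AT2G30010) rose in the night, as EXLB1 did. WT signals came to 430.0 and 444 at 1 h, 365 and 339 at 4 h, 463 and 627 at 8.5 h, 1822 and 1074 at 12 h and 1553 and 981 at 16 h. For Atss3 the values were 353 and 259 at 1 h, 416 and 450.2 at 4 h, 669 and 683 at 8.5 h, 1567 and 871 at 12 h and 1811 and 1030.0 at 16 h. All 8 arrays at 12 and 16 h, from 871 to 1822, lay above the 12 others. It was 3.42-fold higher in the dark (log2 difference 1.77, SE 0.15, adjusted p = 8.56e-07), rose from 8.5 to 12 h (1.08 log2, adjusted p = 0.00386) and was 3.57-fold lower at 1 h than at 16 h (log2 difference -1.84, SE 0.212, adjusted p = 2.09e-05). The rise from 8.5 to 12 h did not pass in run 2 alone (0.56 log2) or without the 5 WT arrays of run 1 (0.78 log2).

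TBL28, of the group that acetylates xylan, fell 2.42-fold from 261 ± 42.4 at 4 h to 108 ± 13.6 at 8.5 h (SD, n = 4 arrays; log2 difference -1.27, SE 0.186, adjusted p = 0.000193). TBL41 was above the percentile on all 4 arrays at 1 h, from 167 to 219, and dim on 12 of the 16 others, with -1.61 log2 for dark minus light (SE 0.418, adjusted p = 0.00622) and -0.61 with raised signals. Its time course did not pass without the 5 WT arrays of run 1 (adjusted p = 0.0829). TBL15 differed by -1.26 log2 (adjusted p = 0.00058) on signals that were dim on 17 of 20 arrays, and its time course was lost with raised signals (adjusted p = 0.151). The fall of TBL15 from 8.5 to 12 h (-1.10 log2, adjusted p = 0.0327) was -0.65 log2 and did not pass without the 5 WT arrays of run 1 (adjusted p = 0.140), and it lost its call without any 1 of 6 arrays (adjusted p up to 0.135, without Atss3 12 h replicate 2).

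The remaining called TBL genes were TBL32, TBL35, TBL36, TBL38 and TBL39, with ranges from 0.79 to 1.21 log2. TBL32, TBL38 and TBL39 were higher in the dark, by 0.88, 0.60 and 0.63 log2, and TBL18, which was not called over the 5 times, by 0.24 log2. TBL39 was dim on 15 of 20 arrays and TBL32 on 9, and with raised signals the difference of TBL39 was 0.16 log2 and did not pass (adjusted p = 0.0952), while that of TBL32 was 0.40 log2 (adjusted p = 0.0106). The time course of TBL36 lost its call without any 1 of 9 arrays (adjusted p up to 0.0963, without WT 16 h replicate 1), and that of TBL38 without any 1 of 15 (up to 0.153, without Atss3 4 h replicate 1). TBL23 and TBL25, mannan acetyltransferases like TBL26, were not called over the day (adjusted p = 0.131 and 0.253), and their ranges were 0.35 and 0.43 log2 against 2.43 for TBL26. TBL16 was not called either (adjusted p = 0.232).

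For each member the later dark harvests (12 and 16 h, averaged) were set against those in the light (1 and 4 h, averaged), a contrast in which the effects of darkness and of the hour cannot be told apart. Of 47 members 30 were called, 16 higher and 14 lower in the dark, against 51.3% of all probe sets (29.3% higher and 22% lower). Fewer were called without the 5 WT arrays of run 1, a fit whose own background is not given here. All 30 had the same direction in all 4 pairs of genotype and run. The calls were made from these same pairs, so this adds no separate support. With raised signals EXPA20, GH9B13, TBL15, TBL39, XTH16 and XTH33 lost this call. The median was 0.13 log2 over the members and 0.04 over all probe sets. By family the median was 0.21 in EXPA, -0.88 in EXPB, 1.01 in XTH, -0.37 in GH9, 0.28 in CSL, 0.51 in PME and 0.13 in TBL. Families with members called in both directions were EXPA (2 higher, 2 lower), XTH (3 and 2), CSL (2 and 1) and TBL (5 and 4). The mesophyll markers RCA, LHCB4.1, LHCB4.2 and PSAE-1 were all lower in the dark (median -0.57 log2) while the root marker PYK10 (1.25 log2, adjusted p = 0.000383) and the phloem marker SWEET11 (0.54 log2, adjusted p = 0.000732) were higher, and their part in these differences was not tested.

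**Figure D3:**
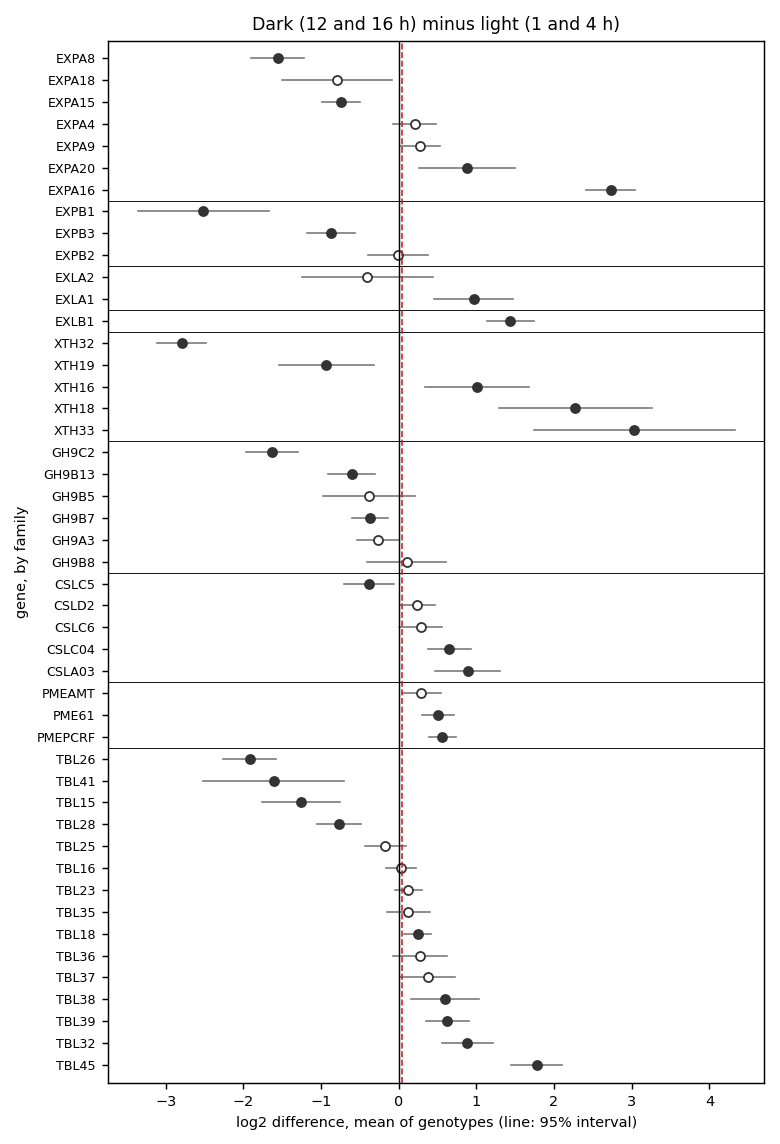
Log2 difference between dark (12 and 16 h) and light (1 and 4 h) for the 47 kept members by family, as the mean of both genotypes with its 95% interval, filled where adjusted p was under 0.05; the dashed red line is the median of all 15470 probe sets, 0.04. EXPA16, XTH18 and XTH33 lie furthest right, and XTH32 and EXPB1 furthest left.

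Between neighbouring harvests, the step across lights off held the most calls. From 4 to 8.5 h 25 of 47 members were called (11 higher, 14 lower), against 34.3% of all probe sets (15.9% higher, 18.4% lower). From 1 to 4 h 13 were called (9 higher, 4 lower; background 33.9%, with 19.1% higher and 14.8% lower), from 8.5 to 12 h 11 (6 and 5; background 19.8%, with 11.5% and 8.29%), from 12 to 16 h 2 (EXPA8 higher and TBL26 lower; background 3.96%, with 2.02% and 1.94%), and from 16 h to 1 h, across the end of the night, 18 (7 and 11; background 43.5%, with 18.4% and 25.1%). The last of these steps spans hours of darkness in which no harvest was taken, and every step compares different plants. Without the 5 WT arrays of run 1, which left 1 WT array per time, every step had fewer calls. From 1 to 4 h the balance then shifted from higher to lower calls. The backgrounds of that fit are not given here, so these changes are not read as a trait of the members. Leaving out Atss3 4 h replicate 1 alone gave 8 from 1 to 4 h. From 8.5 to 12 h the count was 6 when WT 12 h replicate 1 was left out, and also 6 when Atss3 8.5 h replicate 1 was left out. From 12 to 16 h it ranged from 0 to 5, with 0 without WT 12 h replicate 2, Atss3 12 h replicate 2 or either Atss3 array at 16 h.

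**Figure D4:**
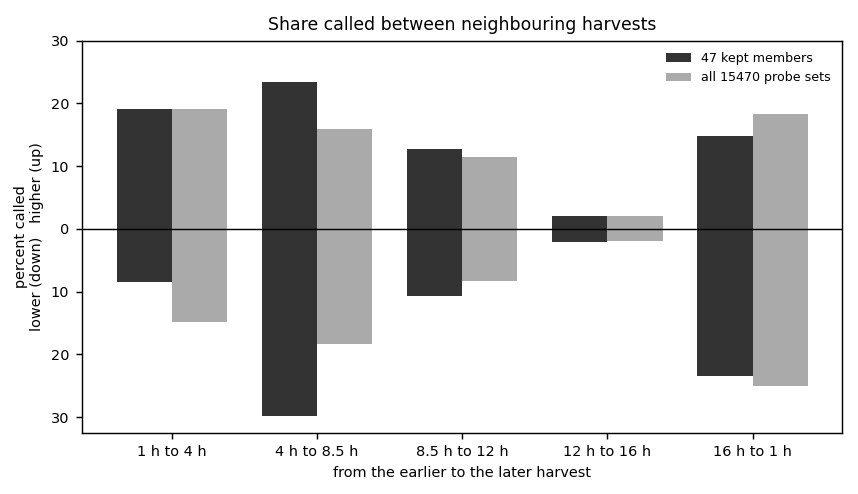
Share of features called in each step between neighbouring harvests (bars up, higher at the later harvest; bars down, lower), in percent, for the 47 kept members (dark) and all 15470 probe sets (grey). Both member bars are longer than the grey bars from 4 to 8.5 h (25 of 47 called against 34.3%) and shorter from 16 h to 1 h (18 of 47 against 43.5%).

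The daily pattern was then set side by side in the 2 genotypes, which asks whether the starch mutant keeps it. In WT 27 of 47 members were called over the day (background 44.2%) and in Atss3 26 (background 48%), with 20 called in both and 13 in 1 genotype. Of all 15470 probe sets, 6836 were called in WT, 7424 in Atss3 and 5534 in both. A call in 1 genotype alone does not show a difference between the genotypes. Of the 20, 15 had their highest time in common, as had 70.3% of the 5534 probe sets called in both. Without the 5 WT arrays of run 1, which left 1 WT array per time, fewer members were called in WT. Dark minus light was called in 23 members in WT (background 34.5%) and in 23 in Atss3 (background 38.3%), and the difference between those contrasts was called in 0 of 47 (background 0%; 1 member and 5.06% of all probe sets had an unadjusted p under 0.05 in limma).

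For the genotype effect over the day, 0 of 47 members were called in limma, against 0.0194% of all probe sets, and 7 members had an unadjusted p under 0.05, against 13.7% of all. The differences, Atss3 minus WT, ran from -0.37 to 0.87 log2 with a median of 0.03 (0.02 over all probe sets), and the median half-width of the 95% interval was 0.289 log2. For 45 of 47 members the interval lay within 1 log2 either way, so a 2-fold difference averaged over the day was outside it. The median was 0.04 in run 1 and 0.03 in run 2. The direction was the same in both runs for 24 members, 15 higher and 9 lower in Atss3. Without the 5 WT arrays of run 1, which left 1 WT array per time, the count of calls did not change.

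**Figure D5:**
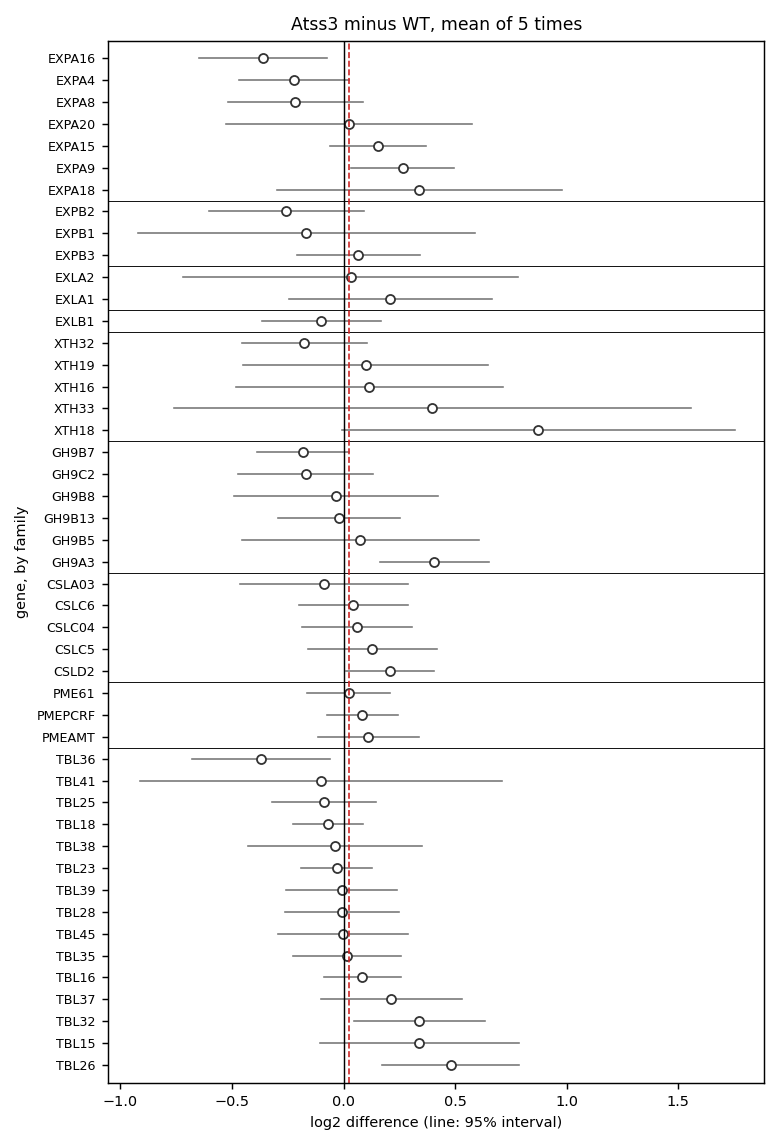
Log2 difference between Atss3 and WT, averaged over the 5 times, for the 47 kept members by family, with its 95% interval; open points were not called, and the dashed red line is the median of all 15470 probe sets, 0.02. GH9A3, TBL26 and EXPA16 have the smallest p-values, and XTH18 the largest difference with a wide interval.

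The members nearest to a genotype call were GH9A3, TBL26 and EXPA16. GH9A3 (AT4G24260) had a 1.33-fold higher mean in Atss3 (log2 difference 0.41, SE 0.113, adjusted p = 0.188, 8 of 10 pairs of the same time and run), by 0.64 log2 in run 1 and 0.18 in run 2. TBL26 had a log2 difference of 0.48 in 7 of 10 pairs (SE 0.14, adjusted p = 0.206), by 0.46 in run 1 and 0.49 in run 2. At 4, 8.5 and 12 h both Atss3 arrays of TBL26 were above both WT arrays of the same time, although the difference was not called at any of these times. These times were picked after the values were seen. How often 2 and 2 arrays separate in this way over all probe sets was not counted. At 1 h the genotypes overlapped, and at 16 h the Atss3 arrays were 1346 and 932 against 2237 and 979 in WT. EXPA16 was lower in Atss3 by a log2 difference of -0.36 in 7 of 10 pairs (SE 0.132, adjusted p = 0.267). XTH18, at 0.87 log2 (95% interval -0.01 to 1.75, adjusted p = 0.365), had 302 and 635 in Atss3 at 12 h and 134 and 67.8 in WT.

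The interaction of genotype and time was called in 0 of 47 members (background 0.00646%; 2 members and 7.1% of all probe sets had an unadjusted p under 0.05 in limma). TBL39, TBL26 and CSLC04 had the smallest p, with adjusted p of 0.682, 0.682 and 0.727. When Atss3 12 h replicate 1 was left out TBL41 was called (adjusted p = 0.0194), which left a single signal of 2.67 for Atss3 at 12 h. Without the 5 WT arrays of run 1, which left 1 WT array per time, the count of calls did not change. More members then had an unadjusted p under 0.05, but the share of all probe sets in that fit was not counted.

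Taken time by time, no member was called at 1, 4, 8.5, 12 or 16 h (backgrounds 0.11%, 0.0129%, 0.0129%, 0.0194% and 0.0259%), with smallest adjusted p of 0.287, 0.999, 0.209, 0.384 and 1.00. At 8.5 h 32 of 47 members had a value above 0 for Atss3 minus WT, as had 54.8% of all probe sets, with a median of 0.27 log2 (0.28 in run 1 and 0.30 in run 2) against 0.04 over all probe sets. At 1 h 16 of 47 were above 0, against 54.2% of all probe sets, with a median of -0.17 log2, but of 0.03 in run 1 and -0.31 in run 2, against 0.03 over all probe sets. The medians at 4, 12 and 16 h were 0.02, 0.04 and 0.00 log2.

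Other wall genes were thinly covered. Of 28 listed sugar nucleotide genes, 20 of wall polymer synthesis, 15 of wall breakdown, 10 structural proteins and 9 growth regulators, named probe sets existed for 1, 3, 1, 0 and 1. USP, which makes UDP-sugars, was lower in the dark (-0.32 log2, SE 0.0757, adjusted p = 0.00325), with mean signals of 714 at 4 h and 493 at 16 h. COB, which orients cellulose, changed over the day (range 0.69 log2, adjusted p = 0.00627), with a mean of 2811 at 1 h and 4535 at 4 h, where the 4 arrays at 1 h, up to 3270.1, lay below the 4 at 4 h, from 4238. The xylan synthases IRX10 and GUT1 were not called over the day (adjusted p = 0.759 and 0.138). IAA29, a repressor of auxin responses, had its lowest mean at 1 h, 54.2, and its highest at 16 h, 155 (range 1.46 log2, adjusted p = 0.000195), with no overlap of those arrays. IAA29 exceeded the percentile on 12 of 20 arrays, and its 4 arrays at 1 h, from 39.7 to 61.4, were all dim, which limits this range. ADPG1, a polygalacturonase, was not kept. None of the 5 kept genes differed between the genotypes at an adjusted p under 0.05.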

How the data were processed

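Total RNA of 20 leaf samples was hybridised to 1-colour arrays. The deposited values are linear intensity values per probe set, made with MAS5 (its version: not given in the sources used here) per the submitters' processing notes. On every array the mean after trimming 2% was 500.04 to 500.05, so the authors had scaled them to a common mean, which hides any change in total RNA, and they were used as deposited. Of 22810 probe sets, 64 controls were removed. Values under 1 were raised to 1 and log2 was taken. Gene names came from the platform annotation (14016 probe sets listed, 13513 with 1 gene, 503 with several; 8730 not listed) and current symbols and neighbouring genes from the TAIR10.1 gene table, which 13436 matched and from which no coordinates were used. Only 1 member probe set (TBL32) is marked as binding several transcripts.

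Linear models were fitted to 15470 kept probe sets in limma 3.58.1 (R 4.3.3), with 10 group means and run as a block (9 residual and 3.45 prior degrees of freedom). P-values are 2-sided, Benjamini-Hochberg adjusted within each contrast over all kept probe sets, and called under 0.05. Runs pair the samples because the labels state that the experiment was done 2 times; array deviations from their group mean correlated over 0.1 for 41 of the 45 group pairs (median 0.20, range -0.11 to 0.44). No arrays were identical, and the number of arrays limits the precision. The analysis was tested on simulated data. Figures used matplotlib 3.10.9, numpy 2.4.6 and Python 3.11.15.

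The members, the lists and the comparisons were chosen with earlier results of these data known. Named were, per family, the called members of largest range over the day (up to 6, or up to 4 in EXPB, EXLA, EXLB and GH9) and the one of highest mean signal; per step and for dark minus light up to 3 rises and 3 falls; for genotype and interaction the 3 smallest p-values; per list up to 3 called genes. The other members, and the genes of lists not called, are named to account for them. Remarks on XTH18 at 12 h, on TBL26 in the genotypes at single times and on TBL41 in the interaction were chosen after the values were seen. Alternatives were signals raised to the 40th percentile, 64 added before log2, quantile or median scaling, no filter, no replicate block, each run alone, without the 5 WT arrays of run 1, the limma trend prior, and leaving out each array.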

Additional observations from a re-analysis of the deposited data

How the results depend on the processing

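No called step or dark minus light difference of a named member reversed its sign under any alternative run. Time course and interaction tests give no direction, so they could not reverse. From 1 to 4 h the balance of higher and lower calls changed without the 5 WT arrays of run 1, as given with the steps. The time course, dark minus light, and the steps from 1 to 4, 4 to 8.5 and 16 to 1 h kept counts within 1.5 times under all settings but run 2 alone, which called 20 members over the day, 18 for dark minus light, and 5, 14 and 9 in those steps, and, for the step from 1 to 4 h, leaving out single arrays. From 8.5 to 12 h the count was 11, and it was 7 with no filter, 3 in run 2 alone and 5 without the 5 WT arrays of run 1. From 12 to 16 h the count was 2, and it was 5 with raised signals, 4 with 64 added, 4 with the limma trend, 1 without the 5 WT arrays of run 1, and 0 with no filter, with no replicate block, in run 1 alone and in run 2 alone. The time course in WT was called in 17 members without the 5 WT arrays of run 1. Leaving out 1 array at a time gave 31 to 38 members over the day, 21 to 29 in WT, 20 to 29 in Atss3, 8 to 16, 20 to 26, 6 to 15, 0 to 5 and 16 to 21 in the steps in order from 1 to 4 h onward, 27 to 34 for dark minus light, 0 for the genotype effect and 0 to 1 for the interaction. With no replicate block the counts were 36 over the day, 28 for dark minus light and 9 from 1 to 4 h; without that block no other of these counts moved by over 1.5 times than the step from 12 to 16 h. Of 70 values of named members, 10 lost their call with raised signals, 9 with no filter, 4 with no replicate block, 2 with quantile scaling, 8 without the 5 WT arrays of run 1, and 0 with 64 added, median scaling or the limma trend; of 67, 13 lost it in run 1 alone and 23 in run 2 alone. Not all of these values could lose a call. The 3 for the genotype effect and, among the 70, the 3 for the interaction were not called in the main fit. Without the 5 WT arrays of run 1, with 1 array per time in WT, that sample is assumed to vary like the other groups. A run alone could not be fitted for the interaction or for the time course of 1 genotype, and the choice among several probe sets of a gene was not run, since no member had several. Dim signals limit the folds of XTH33, XTH18, EXPB1 and TBL41.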
